A study of Mus musculus with 2 samples.

Results

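The cells described here are shallow uterine cell barcodes that each hold at least 3 of 10 chosen transcripts. Of the 10, Inhba, Rab31, Nog and Pde1a were the most abundant over both libraries. A barcode is the tag of 1 droplet, and its depth is its number of unique molecular identifiers (UMIs, 1 per counted RNA molecule). Members had at least 500 detected genes, under 5000 UMIs, at most 20% mitochondrial UMIs, no UMI of the leukocyte gene Ptprc or the epithelial gene Epcam, and under 1% of UMIs from 6 smooth muscle genes (Actg2, Cnn1, Des, Tagln, Acta2 and Myh11). They also had to hold at least 3 of 10 rule genes: Uts2, Samd5, Pde1a, Ak1, Tspan9, Fxyd6, Nog, Inhba, Rab31 and Scml4. The rule found 168 members among 8603 cells, 92 of 3653 in the control library and 76 of 4950 in the cKO library. Members were thus chosen by measured values: the detection of the 10 genes, depth, mitochondrial share and the 8 excluding genes. Because the 10 genes were taken from earlier results of these data, their levels are given as a description and support nothing else.

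The tissue was the whole uterus at an age of 6 months, digested for 5 hours into single cells, whose transcript 3-prime ends were sequenced in droplets. Control mice were Prickle1 f/f, carrying floxed alleles of Prickle1, a planar cell polarity gene. The conditional knockout (cKO) mice were Prickle1 f/f Ltf-cre. They carried the same floxed alleles together with a Cre driven by Ltf, a gene known for its transcription in uterine epithelium, so mesenchymal cells such as these are not its known target. Tissue of 3 mice was pooled into a single library for each genotype (n = 1 per group). No replicate therefore checks any difference below, and genotype, animals, dissociation and library cannot be told apart. A separate label calls both samples C57BL/6J wild-type, against their titles. Groups follow the titles.

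The stroma of the uterus is a mesenchyme that lays down collagen and answers oestrogen and progesterone. Within the transforming growth factor family, activins are dimers of the subunits encoded by Inhba and Inhbb, follistatin (Fst) binds and blocks activins, and noggin (Nog) binds and blocks bone morphogenetic proteins. Uts2 encodes urotensin 2, a vasoactive peptide, and Pde1a encodes a phosphodiesterase that calcium and calmodulin activate and that breaks down cyclic nucleotides.

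The libraries held 45035801 UMIs in control and 57145553 in cKO, and 7.19% and 0.921% of barcodes with enough genes passed the mitochondrial limit and were left out. Members supplied 236986 and 198978 UMIs. Their depth ran from 843 to 4898 UMIs in control with a median of 2418.5, and from 739 to 4701 in cKO with a median of 2587.5. They held a median of 1164.5 and 1288 genes and a median of 1.86% and 1.09% mitochondrial UMIs. The cells of both libraries shared 5 barcode sequences, and 0 of them were members. A doublet score above 0.25 was found for 1 member of each library, against 1.18% and 1.23% of all cells. Levels below are CPM, counts scaled to a fixed total, of the UMIs summed over a group of barcodes, and every interval is a 95% interval that covers counting error only.

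Members made up 2.52% (2.03 to 3.08) of control cells and 1.54% (1.21 to 1.92) of cKO cells. The ratio of these shares was 0.610 with an interval of 0.438 to 0.830 from the odds. Among the shallow barcodes that met every limit except the 10-gene rule, members were 9.26% (7.53 to 11.2) of 994 in control and 8.35% (6.64 to 10.3) of 910 in cKO, a ratio of 0.902 (0.641 to 1.24), and on this denominator no difference was detectable. The share also depended on the depth limit. Without the upper limit of 5000 UMIs the same rule held 12.6% of control cells and 23.8% of cKO cells, so that cKO was then the higher.

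Prickle1 itself was barely seen in members. There were 0 UMIs in the 92 control members, which at 3 counts allows a UMI in up to 3.26% of barcodes (exact binomial limit 3.93%) and does not limit the share of cells that express it, and 2 UMIs in 1 of the 76 cKO members. The tags lie at the 3-prime end and may fall outside the deleted stretch, so these counts check nothing about the labels.

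The working name of these cells lists Uts2, Pde1a and Nog, all of them rule genes, so that their presence in members says nothing about the name. Uts2 (ENSMUSG00000028963; chromosome 4, 150997097 to 151001810, plus strand, GRCm38) had 91 UMIs in 28 control members, 384 CPM, and 10 UMIs in 5 cKO members, 50.3 CPM, which is 7.64-fold (3.97 to 16.5) lower in cKO. A single cKO barcode held 40% of those UMIs, and without it the cKO level was 30.5 CPM. All 3 genes were present together in 7 control members and 1 cKO member, and 12 control and 21 cKO members had none of them. The members are therefore named by their rule and not by these genes. Their mesenchymal side was checked with 8 genes outside the rule (Col1a1, Col1a2, Col3a1, Dcn, Lum, Pdgfra, Pcolce and Serping1): at least 3 were detected in 89 of 92 control and 61 of 76 cKO members, and 0 were detected in 2 cKO members. Their sum was 18157 CPM in control and 9036 CPM in cKO members, against 1771 and 1108 CPM in shallow smooth muscle barcodes (at least 1% smooth muscle UMIs) and 1740 and 4140 CPM in cell-free barcodes. Detection alone was a weaker sign: Dcn had a UMI in 95.7% and 84.2% of members, and in 49.1% and 36.2% of shallow smooth muscle barcodes (median depths 1299 and 1258.5 UMIs).

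The sequences just upstream of Uts2 and Inhba are shown because Uts2 was the rule gene that differed most between the libraries and Inhba the one with most UMIs. RefSeq windows on GRCm38.p6 matched 8 of the 10 rule genes. Each line gives the 250 bases before the annotated start, read along the plus strand, and capitals mark the letters TATAAA on either strand (TTTATA on the other), which overlap each other at Uts2.
Uts2, chr4:150996847-150997096: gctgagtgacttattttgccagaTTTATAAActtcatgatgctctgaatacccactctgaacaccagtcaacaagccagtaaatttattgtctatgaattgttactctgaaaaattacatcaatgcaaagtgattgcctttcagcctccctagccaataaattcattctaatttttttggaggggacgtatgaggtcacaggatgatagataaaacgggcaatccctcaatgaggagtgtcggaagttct
Inhba, chr13:16011601-16011850: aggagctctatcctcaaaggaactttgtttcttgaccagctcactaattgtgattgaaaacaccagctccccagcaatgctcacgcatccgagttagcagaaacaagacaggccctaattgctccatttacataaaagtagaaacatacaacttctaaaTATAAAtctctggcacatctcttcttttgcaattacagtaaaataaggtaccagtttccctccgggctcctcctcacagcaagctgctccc
Counted from the start, the matches began at -227 and -225 in Uts2 and at -91 in Inhba. These letters occurred in 13.6% of 32851 mouse windows of 300 bases (250 before to 50 after a start) and in 5 of the 17 windows of the matched rule genes. A match is a description of the letters and not a site of action.

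Summed over the 10 rule genes, members held 965 UMIs in control, 4072 CPM (3819 to 4337), and 971 UMIs in cKO, 4880 CPM (4578 to 5197), a ratio of 1.20 (1.10 to 1.31). With TMM scaling the log2 ratio of this sum had an interval of -0.023 to 0.24, and with at least 4 rule genes required one of -0.13 to 0.23, both of which include 0. Other settings raised the log2 ratio from 0.26 to 0.85 under 3000 UMIs, 0.57 in members without Malat1 and 0.42 with barcodes weighted equally. Inhba supplied the most: 1971 CPM over 67 control members and 2880 CPM over 60 cKO members, a ratio of 1.46 (1.29 to 1.65). This activin subunit gene made up the largest part of the rule sum in both libraries.
Nog, the bone morphogenetic protein antagonist, had 371 CPM in 41 control members and 407 CPM in 33 cKO members, and its ratio of 1.10 (0.801 to 1.50) did not exclude 1. Pde1a had 409 CPM in 55 control members and 286 CPM in 33 cKO members, 1.43-fold (1.02 to 2.02) lower in cKO. Rab31, which encodes a small GTPase of vesicle transport, had 452 CPM and 548 CPM.
The other 5 rule genes lay between 55.3 and 181 CPM in either library, in cKO all above Uts2 at 50.3 CPM. Among them Tspan9, a tetraspanin gene, was higher in cKO (76.0 and 161 CPM; ratio 2.12, 1.15 to 4.01), as was Samd5 (101 and 181 CPM; ratio 1.79, 1.04 to 3.13). The direction of Tspan9 turned to a log2 ratio of -1.68 with no upper UMI limit, and in deep rule barcodes it was -2.00. Of the 10 genes, Uts2 was past 2-fold lower in cKO and Tspan9 past 2-fold higher, beside 16.4% of the 3169 genes with at least 15 member UMIs in the higher library. No reading of that count is possible, since these genes chose the members.

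**Figure D1:**
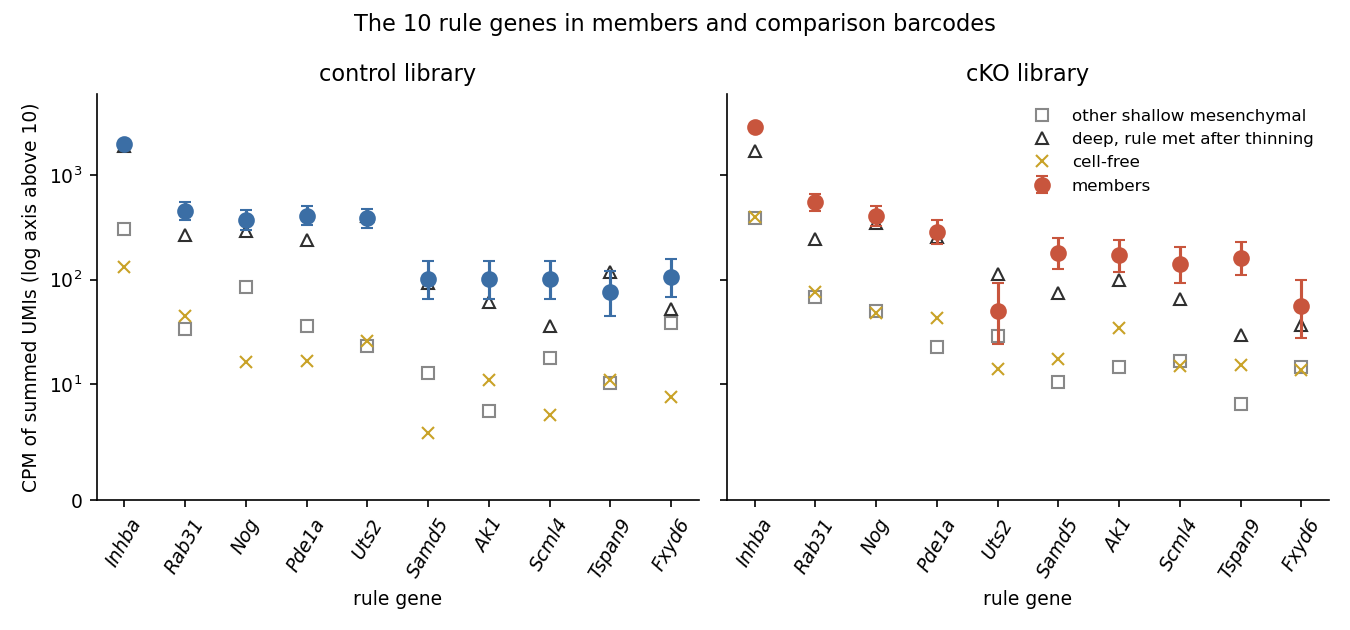
CPM of each of the 10 rule genes (horizontal axis) in control (left) and cKO (right), on a log axis above 10 CPM, for members (filled circles with 95% counting intervals), other shallow mesenchymal barcodes (squares), deep mesenchymal barcodes that met the rule after thinning (triangles) and cell-free barcodes (crosses). Inhba is the highest gene in members of both libraries, at 1971 and 2880 CPM, and Uts2 is at 384 CPM in control and 50.3 CPM in cKO.

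Detection was thin. Exactly 3 rule genes were found in 50 control members (54.3%) and 40 cKO members (52.6%), and the most in any member was 7. Barcodes just outside the rule, with 2 rule genes, numbered 88 in control and 124 in cKO, and those just inside, with 3, numbered 50 and 40. Thbs2, which encodes the matrix protein thrombospondin 2 and is no rule gene, had 1988 CPM just outside and 2968 CPM just inside in control, and 1605 and 2091 CPM in cKO. The same neighbours differed more in the nuclear RNA Malat1, at 22598 against 6403 CPM in control and 21558 against 14803 CPM in cKO. Of the 8 mesenchymal genes the median number detected was 5 on both sides in control, and 3 outside against 4 inside in cKO.

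**Figure D2:**
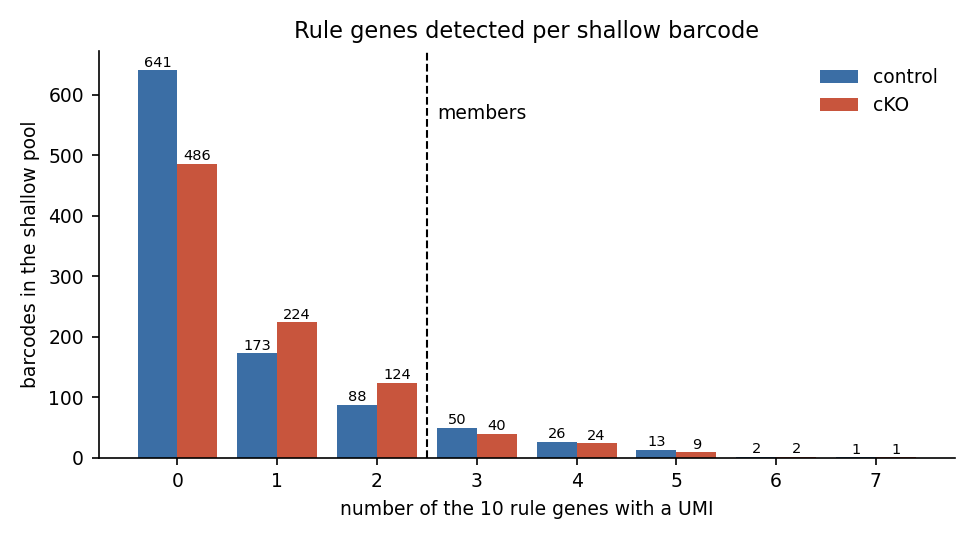
Number of shallow barcodes (vertical axis) by how many of the 10 rule genes had a UMI (horizontal axis), for control and cKO; the dashed line marks the limit of 3. Control has 641 and 173 barcodes with 0 and 1 rule gene and cKO has 486 and 224, and the numbers decline with each further gene.

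Other mesenchymal barcodes of 2 kinds served for comparison. Other shallow mesenchymal barcodes met the same limits but had at most 1 rule gene and at least 3 of the 8 mesenchymal genes: 187 in control and 190 in cKO, with median depths of 1796 and 2300 UMIs. Deep mesenchymal barcodes had at least 5000 UMIs and at least 5 of the 8 genes, 460 and 1387 in number. With all their reads 70.7% and 74.8% of the deep barcodes met the 10-gene rule. Thinned at random to the median depth of the members, 18.9% (15.4 to 22.8) in control and 21.6% (19.5 to 23.9) in cKO still met it. These 87 and 300 barcodes, called deep rule barcodes, are the closest deep counterpart, with all their reads used below.

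Against other shallow mesenchymal barcodes, members were higher in Thbs2, Itga2, Inhbb and 3 of 6 vasoactive genes, and lower in 9 of 20 stress genes and 3 of 6 nuclear RNAs, counting genes with at least 15 member UMIs in each library. Of 4088 genes outside the rule, 100 were past 2-fold higher in members of both libraries (2.45%) and 234 past 2-fold lower (5.72%), together 8.17%. Restricted to the 2231 genes with at least 15 UMIs in members of each library, 98 were higher (4.39%) and 40 lower (1.79%), together 6.19%. Set on members alone, this limit drops genes scarce in members and so favours higher over lower calls. Taking each library alone, 11.8% were higher and 5.47% lower in control members, and 14.4% higher and 3.05% lower in cKO members.
Thbs2 (chromosome 17, 14665500 to 14694235, minus strand, GRCm38) led the higher genes, with 2996 against 751 CPM in control, 3.99-fold (3.48 to 4.59), and 2211 against 699 CPM in cKO, 3.16-fold (2.74 to 3.66). At an equal 800 UMIs per barcode a Thbs2 UMI was found in 72.8% of control and 60% of cKO members, 83.7% and 71.1% unthinned, against 29.3% and 23.8% of other shallow mesenchymal barcodes. In shallow smooth muscle barcodes, used as a background, the thinned shares were 2.68% and 1.09%.
Itga2, an integrin subunit that binds collagen, was 4.21-fold (2.39 to 7.71) higher in control and 3.95-fold (2.26 to 7.05) in cKO. Inhbb, the other activin subunit, was 3.04-fold (2.43 to 3.81) and 2.44-fold (2.03 to 2.93) higher. It carried 966 and 1216 CPM in members, beside 658 and 1310 CPM in deep mesenchymal barcodes.
Further genes among the 20 that led this comparison in both libraries were Arl4c (3.16- and 2.57-fold), the hyaluronan synthase gene Has1 (2.55- and 2.72-fold), the oxytocin receptor gene Oxtr (2.52- and 2.70-fold), the neurotrophin receptor gene Ngfr (2.53- and 2.88-fold) and Ramp3 (2.73- and 2.39-fold). Without the 1 barcode that held 38.9% of the cKO UMIs of Has1, its cKO member level was 884 CPM beside 522 CPM in other shallow barcodes, under 2-fold. Ramp3 and Calcrl (2.47- and 2.93-fold) encode partners in 1 receptor complex for adrenomedullin. With Oxtr they were the 3 of 8 measured vasoactive genes past 2-fold, all higher, and the same 3 of the 6 with enough member UMIs in each library. The vasoactive list had medians of 1.17 and 1.00 on the log2 scale, beside 0.015 and 0.17 over all genes tested.

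Among the lower genes were many that cells switch on under stress. Of 26 immediate early and dissociation stress genes, 13 were past 2-fold lower in members of both libraries and 0 higher, with log2 medians of -1.49 in control and -1.15 in cKO. Hspa1a, which encodes the inducible heat shock protein 70, had 33.8 against 1814 CPM in control, 53.7-fold (27.1 to 125) lower, and 271 against 2898 CPM in cKO, 10.7-fold (8.14 to 14.3) lower. With under 15 UMIs in control members, it entered through the other barcodes and is not among the 20 genes counted below. The transcription factor genes Jun (13.8- and 2.82-fold lower) and Fos (7.54- and 3.80-fold lower) did the same. Complement C3 was 8.45-fold and 8.42-fold lower, and the growth arrest gene Gas1 26.9-fold and 8.80-fold lower. Dcn, the proteoglycan decorin, was 1.76-fold (1.62 to 1.91) and 1.86-fold (1.69 to 2.05) lower, short of the 2-fold limit.
Of the 20 stress genes with at least 15 member UMIs in each library, 9 were past 2-fold lower and 0 higher. Lower calls in other lists came mostly through genes scarce in members: of the 3 lower Wnt genes (Wnt9a, Rspo3 and Sfrp1) among 8, 2 lower cell cycle genes among 5 and 2 lower apoptosis genes among 13, 0 had enough UMIs in members of each library. Tnc was higher among 31 collagen and matrix genes, and Bmp2, Bmp4 and Id1 were lower, and Inhbb higher, among 21 genes of the activin and bone morphogenetic protein list. Over all genes 2.45% were higher and 5.72% lower. Bmp2 and Bmp4 were scarce in members and entered through the other barcodes. With enough member UMIs in each library, Id1 alone of 14 was lower and Inhbb alone higher, beside 1.79% and 4.39% of all such genes. Esr1, the oestrogen receptor, was 2.11-fold (1.32 to 3.52) and 2.01-fold (1.31 to 3.19) lower. The other shallow barcodes also carried more mesothelial marker RNA (541 and 416 CPM over 8 genes, against 92.8 and 116 CPM in members) and more epithelial marker RNA (643 and 291 CPM over 14 genes, against 181 and 10.1 CPM). Their part in the lower genes was not tested.

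Against deep rule barcodes far fewer genes differed. Of 7648 genes, 3 were past 2-fold higher in members of both libraries (0.0392%) and 40 lower (0.523%). Among the 2231 genes with enough member UMIs in each library, Arl2bp alone was higher (0.0448%; 2.14- and 2.49-fold), and Malat1, Postn and Lima1 were lower (0.134%), together 0.179%. Taking each library alone, 1.61% were higher and 3.94% lower in control members, and 1.61% higher and 1.17% lower in cKO members. Postn, the matrix protein periostin, was 2.51-fold (1.65 to 4.01) and 2.26-fold (1.44 to 3.77) lower, and Lima1, an actin regulator, 2.10-fold (1.33 to 3.49) and 3.04-fold (1.84 to 5.45).
Thbs2 was not higher here: members had 0.850 (0.785 to 0.920) of the deep level in control and 0.652 (0.592 to 0.716) in cKO. The fibrillar collagens went opposite ways in the 2 libraries. Col1a1, Col1a2 and Col3a1 were 2.02-, 2.18- and 2.35-fold higher in control members than in control deep rule barcodes, and 1.50-, 1.79- and 2.40-fold lower in cKO members than in cKO deep rule barcodes.

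Malat1 (ENSMUSG00000092341; chromosome 19, 5795690 to 5802672, minus strand, GRCm38), a long noncoding RNA retained in the nucleus, was missing from about as many members as held it. No Malat1 UMI was found in 46 of 92 control members (50%; 39.4 to 60.6) and 40 of 76 cKO members (52.6%; 40.8 to 64.2). In other shallow mesenchymal barcodes it was missing from 24.6% and 25.8%, and in deep rule barcodes from 4.60% and 0.667%. At an equal 800 UMIs, a Malat1 UMI was found in 27.2% of control and 40% of cKO members, in 68.5% and 72.4% of other shallow mesenchymal barcodes, and in 96.5% and 98.9% of deep mesenchymal barcodes. At this equal depth a Malat1 UMI was less frequent in members than in either comparison.
The summed level was 4650 CPM in control members and 9896 CPM in cKO members, against 37949 and 27120 CPM in other shallow mesenchymal and 33214 and 19981 CPM in deep rule barcodes. Cell-free barcodes held 27654 and 12356 CPM, more than the members of their own library. Other barcodes lacked it too: 38.3% and 75.3% of shallow smooth muscle barcodes lacked it, as did 14.5% and 35.3% of all cells under 5000 UMIs, against 7 cells of each library at or above that depth.
Xist, which coats the inactive X chromosome, and Neat1, the scaffold of nuclear paraspeckles, were missing along with it. Of the Malat1-free members, 1 in control and 0 in cKO had Xist, and 1 in each library had Neat1. All 3 RNAs were absent from 44 control members (47.8%) and 39 cKO members (51.3%). Of 9 measured nuclear and long noncoding RNAs, 4 (Malat1, Meg3, Xist and Tsix) were past 2-fold lower in members than in other shallow mesenchymal barcodes of both libraries, beside 5.72% of all genes. With enough member UMIs in each library, 3 of 6 (Malat1, Meg3 and Xist) were lower, beside 1.79% of all such genes.

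**Figure D3:**
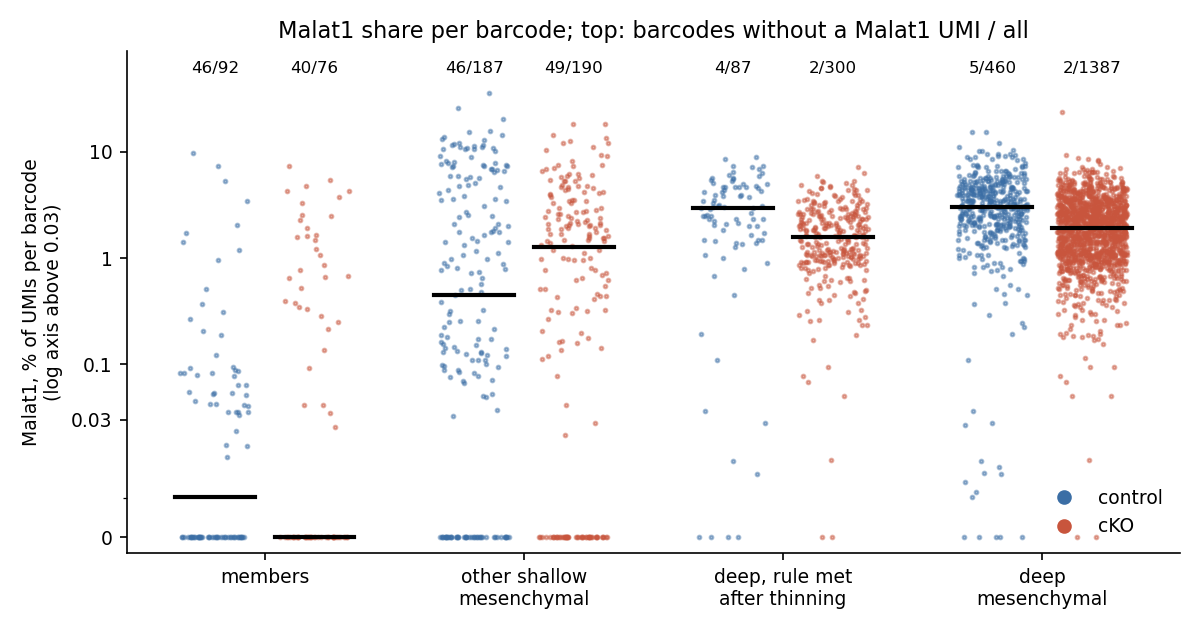
Malat1 as a percentage of the UMIs of each barcode (vertical axis, log above 0.03%), by group and library; bars are medians, and the numbers at the top are barcodes without a Malat1 UMI over all barcodes of the group. Members lie at or near 0 for the most part (46/92 and 40/76 without a UMI), while deep mesenchymal barcodes have medians of 3.05% and 1.92%.

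Members were also read in 3 ranges of Malat1 share, which are cuts of a graded value and not cell types. In control 46 had no UMI, 36 a share under 0.5% and 10 a share of 0.5% or more; in cKO the numbers were 40, 13 and 23. Within a factor of 2 of the 0.5% limit lay 5 control and 11 cKO members. Median depth was higher with more Malat1, from 2032.5 through 2686 to 3295.5 UMIs in control and from 2032 through 3183 to 3378 UMIs in cKO.
Rule gene levels in these ranges were 3683, 4420 and 4267 CPM in control and 5477, 6811 and 3180 CPM in cKO. Since each member needs 3 rule genes at any depth, these levels are tied to depth by the rule and nothing is read from them. Immediate early and stress genes were highest at the highest Malat1 share in both libraries, 12891 CPM in control and 19015 CPM in cKO, against 7976 and 9282 CPM without Malat1. The 35 collagen and matrix genes together were lower with more Malat1 in control, from 28057 through 24557 to 14041 CPM, and higher in cKO, from 10918 through 14050 to 16943 CPM. A single cKO member of the last range held 44 of the 73 Col3a1 and 89 of the 198 Col1a1 UMIs there. The last cKO value therefore leans on that member.
Uts2 in cKO came wholly from the 40 members without Malat1, at 119 CPM, and in control it was present in all 3 ranges, at 228, 617 and 182 CPM.

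Between the libraries, the members of cKO carried more RNA of inflammatory cytokine genes and less fibrillar collagen RNA than those of control. With at least 15 member UMIs in the higher library, 329 genes of 3169 were past 2-fold higher in cKO (10.4%) and 190 past 2-fold lower (6.00%), and the median log2 ratio over all of them was 0.11. Since a gene scarce in 1 library enters only through the other, counts are also given over the 2231 genes outside the rule with at least 15 member UMIs in each library, of which 6.05% were higher and 3.32% lower in cKO, together 9.37%. TMM scaling shifted all log2 ratios by 0.15 and turned the split of the 3169 genes from 329 higher and 190 lower into 236 higher and 277 lower. Genes barely past 2-fold higher, such as Pgr below, fall short of 2-fold with that scaling.
Of 14 measured inflammatory cytokine and related genes, 11 were past 2-fold higher in cKO members and 0 lower, with a median log2 ratio of 2.19. Of the 9 with enough UMIs in each library, 7 were past 2-fold higher (Ccl2, Ccl7, Cxcl1, Has1, Il11, Lif and Nfkbia) and 0 lower, with a median of 1.67. Their sum was 2971 CPM in control members and 11956 CPM in cKO members, a ratio of 4.02 (3.70 to 4.38). Per member the sum had a median of 1141 CPM and a highest value of 30403 CPM in control, and a median of 4058 and a highest of 75053 CPM in cKO. In deep rule barcodes 6 genes of this list were past 2-fold higher, with a median log2 ratio of 0.88, and in other shallow mesenchymal barcodes also 6, with a median of 0.95. Over all 3169 genes, 78 were past 2-fold higher in deep rule barcodes and 84 in other shallow mesenchymal barcodes.
Ccl2, a chemokine that attracts monocytes, had 148 UMIs in 16 control members and 657 UMIs in 32 cKO members, 625 and 3302 CPM, a ratio of 5.29 (4.42 to 6.36). Without the barcode of each library that held most Ccl2, its log2 ratio was 2.71 in place of 2.40. In deep rule barcodes the log2 ratio was 1.18.
Ccl7 (190 and 1081 CPM), Cxcl1 (143 and 849 CPM), Lif (430 and 1372 CPM), a cytokine of implantation, and the hyaluronan synthase genes Has1 (452 and 1422 CPM) and Has2 (42.2 and 307 CPM) were higher in the same way. With no upper UMI limit the log2 ratio of Ccl7 turned to -0.018. Of the cKO UMIs of Has1, 38.9% lay in 1 barcode, and without it the level was 884 CPM. Interleukin 6 (Il6) was seen in 6 control members, at 46.4 CPM, and in 19 cKO members, at 734 CPM, with 56.2% of the cKO UMIs in 1 barcode and 328 CPM without it. Cxcl2 (16.9 and 397 CPM) and Cxcl5 (50.6 and 347 CPM) rested even more on 1 cKO barcode, with 75.9% and 59.4% of their UMIs, and stood at 97.5 and 144 CPM without it. In control 3 of 4 UMIs of Cxcl2 and 11 of 12 UMIs of Cxcl5 lay in 1 barcode, without which the levels were 4.28 and 4.26 CPM.

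Follistatin ranked first among the genes higher in cKO members. Fst (chromosome 13, 114452290 to 114458951, minus strand, GRCm38) had 3 UMIs in 2 control members and 69 UMIs in 17 cKO members, 12.7 and 347 CPM, a ratio of 27.4 (8.99 to 136). A single barcode held 31.9% of the UMIs in cKO, where the level was 242 CPM without it. Its log2 ratio was 0.22 in other shallow mesenchymal and 0.79 in deep rule barcodes. The activin subunit gene Inhbb had a ratio of 1.26 (1.05 to 1.51). Of 20 measured genes of activin and bone morphogenetic protein signalling, Fst, Gdf10, Tgfbr3 and the target gene Id2 (160 and 668 CPM) were past 2-fold higher in cKO, beside 10.4% of all genes. With enough UMIs in each library, Id2 alone of 14 was higher, beside 6.05% of all such genes, and with no upper UMI limit Id2 turned to a log2 ratio of -0.66. Tgfb2 was the 1 gene past 2-fold lower, 2.25-fold (1.47 to 3.51).
Some of the 12 genes ranked highest rested on few barcodes. All 29 UMIs of Cx3cr1, a chemokine receptor of macrophages, lay in 1 cKO member, from which Ptprc was absent by the rule, and with no upper UMI limit its log2 ratio was -0.92. Dkk2, an inhibitor of Wnt signalling, had 1 UMI in control and 19 UMIs in 5 cKO members.

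**Figure D4:**
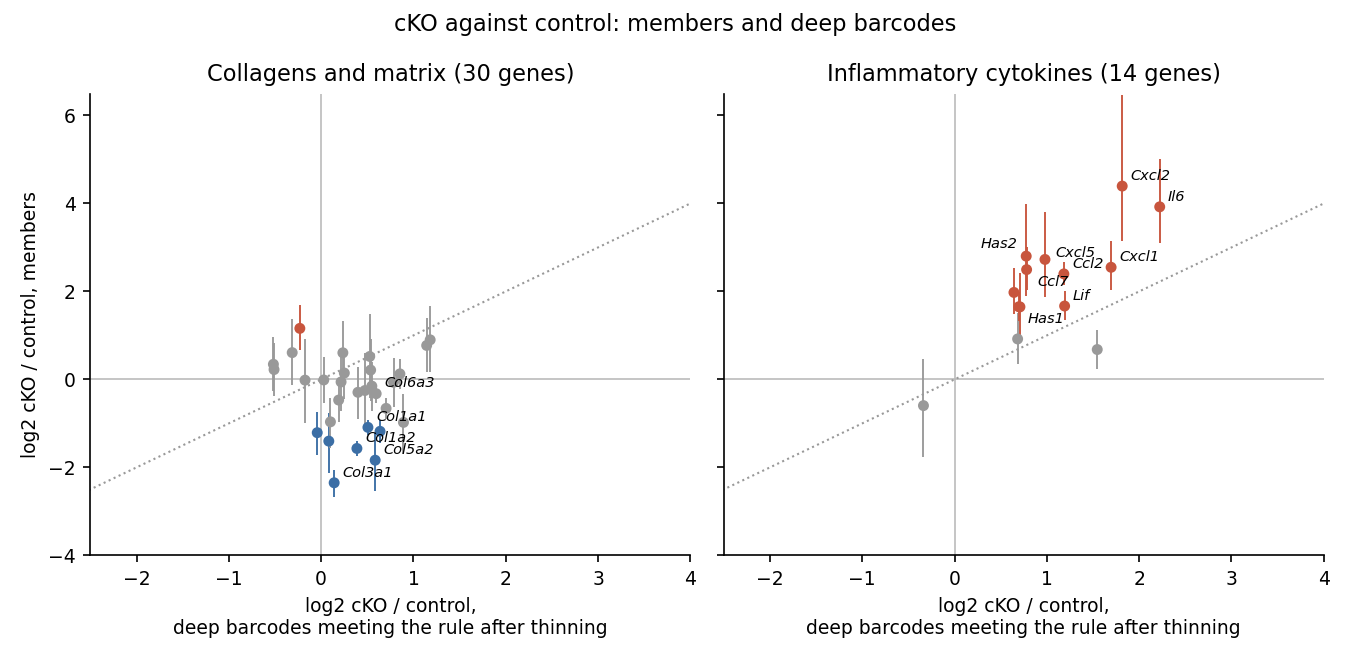
Log2 ratio of cKO to control in members (vertical axis, points with a pseudocount of 0.5 UMI, lines 95% counting intervals) against the same ratio in deep rule barcodes (horizontal axis), for each measured collagen and matrix gene (left) and cytokine gene (right); red and blue mark genes past 2-fold higher and lower in members, and the dotted line marks equal ratios. Col3a1, Col1a2 and Col1a1 lie below the line, with member ratios of -2.36, -1.57 and -1.09 against 0.14, 0.39 and 0.51 in deep rule barcodes, and most cytokine genes lie above 0 on both axes.

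Fibrillar collagen genes were lower in cKO members. Col3a1 (chromosome 1, 45311538 to 45349706, plus strand, GRCm38) had 616 UMIs in 69 control members and 101 UMIs in 29 cKO members, 2599 and 508 CPM, 5.12-fold (4.14 to 6.38) lower in cKO. Of the cKO UMIs 43.6% lay in 1 barcode, and without it the cKO level was 293 CPM. Col1a2 went from 5557 to 1870 CPM, 2.97-fold (2.65 to 3.34) lower, and Col1a1 from 4359 to 2045 CPM, 2.13-fold (1.90 to 2.40) lower.
Of 30 measured collagen and matrix genes, all with enough UMIs in each library, 7 were past 2-fold lower (Col1a1, Col1a2, Col3a1, Col5a1, Col5a2, Col6a2 and Col15a1), all collagens, and 1 higher, the protease inhibitor gene Timp2, beside 3.32% lower and 6.05% higher over all such genes. The list's median log2 ratio was -0.11, close to 0 beside the 7 collagens named. Its sum was 24643 CPM in control and 13811 CPM in cKO, 1.78-fold (1.70 to 1.87) lower, and per member the sum ranged from 0 to 88021 CPM with a median of 18840 CPM in control and from 0 to 85872 CPM with a median of 10862 CPM in cKO.
Lower as well were Sparc, whose product binds collagen (4047 and 1664 CPM; 2.43-fold lower, 2.14 to 2.76) and Pcolce, whose product helps to process it (25 and 4 UMIs; 5.25-fold lower, 1.81 to 20.7). In deep rule barcodes the collagen list had a median log2 ratio of 0.39, with 2 genes past 2-fold higher and 0 lower. There 78 of all 3169 genes were past 2-fold higher and 47 lower. In other shallow mesenchymal barcodes the log2 ratios were -1.51 for Col3a1, -0.75 for Col1a2 and -0.59 for Col1a1. These 3 collagen genes were thus lower in cKO in members and in shallow barcodes with at most 1 rule gene, and higher in cKO among deep rule barcodes. With no upper limit on UMIs, which lets deep barcodes in, the log2 ratios were 0.26 for Col3a1, 0.60 for Col1a2, 0.84 for Col1a1, 0.66 for Col5a2, 0.22 for Col15a1 and 0.20 for Sparc.
The collagen difference varied with Malat1. Among members without Malat1, Col3a1 was 14.7-fold (9.37 to 24.3) lower in cKO (3483 and 237 CPM), and with a Malat1 share under 0.5% it was 11.8-fold (5.90 to 27.7) lower. At a share of 0.5% or more it was 2.15-fold (1.22 to 4.03) higher in cKO, at 454 and 975.5 CPM. Of the 73 cKO UMIs of Col3a1 in that range, 44 lay in 1 barcode, so this direction leans on 1 member. The whole list had the same order of directions, at 2.57-fold (2.39 to 2.77) and 1.75-fold (1.59 to 1.92) lower and then a ratio of 1.21 (1.08 to 1.35). The same barcode held 89 of the 198 Col1a1 and 82 of the 151 Col1a2 cKO UMIs of that last range. The list ratio there leans on that barcode too, and no list level without it was computed. The last range held 10 control and 23 cKO members, and the part of Malat1 share and depth in the difference was not tested.
The cytokine list had ratios of 4.86 (4.22 to 5.62) without Malat1, 7.15 (6.12 to 8.38) below 0.5% and 1.46 (1.26 to 1.69) at 0.5% or more. Both differences between the libraries were larger in the ranges below 0.5% than at 0.5% or more.

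**Figure D5:**
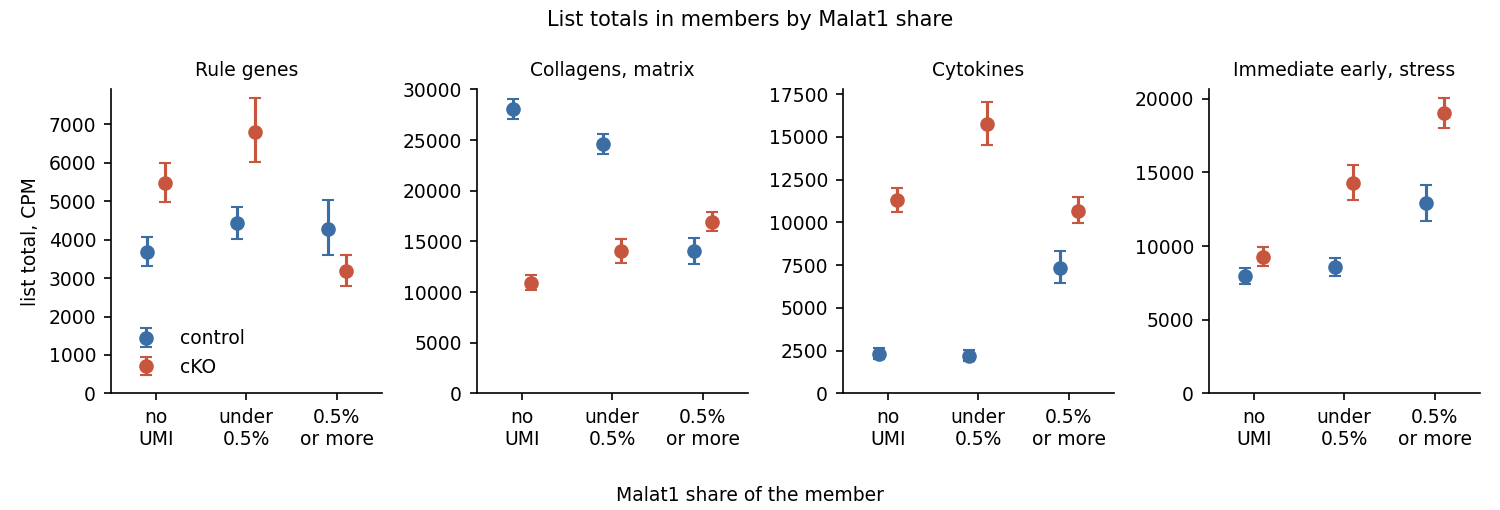
Summed CPM of 4 gene lists (panels) in members with no Malat1 UMI, a Malat1 share under 0.5% and a share of 0.5% or more, for control and cKO with 95% counting intervals. Collagen and matrix RNA is far apart between the libraries without Malat1 (28057 and 10918 CPM) and close at the highest Malat1 share (14041 and 16943 CPM). At that highest share 1 cKO member held 89 of the 198 cKO UMIs of Col1a1.

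Beyond collagens, the 12 genes ranked lowest in cKO members included 3 of the S100 family. S100a6, a calcium-binding protein gene, went from 3004 to 910 CPM (3.30-fold lower), and S100a1, S100a10, Fkbp11, Matn2 and Pi15 were 9.24-, 3.03-, 7.56-, 4.66- and 6.51-fold lower. Genes of mitochondrial respiration, Ndufa13 (40 and 2 UMIs, 16.8-fold lower, 4.36 to 143) and Atp5e (3.57-fold lower), were also among the 12. No list of S100 or respiration genes was counted, so nothing is read about either family. Ribosomal protein genes made up 17.6% of control and 11.1% of cKO member UMIs, against 13.7% and 12.003% in deep rule barcodes, and Gapdh was 2.16-fold (1.67 to 2.80) lower. With no upper UMI limit Gapdh and Fkbp11 turned to log2 ratios of 0.36 and 0.72.
Of 24 measured immediate early and stress genes, 10 were past 2-fold higher in cKO members and 0 lower, with a median log2 ratio of 0.56, against 0.41 in other shallow mesenchymal and -0.08 in deep rule barcodes. The share of all genes higher was 10.4%. With enough UMIs in each library, 7 of 20 were higher and 0 lower, beside 6.05% of all such genes higher. Hspa1a (8 UMIs in 7 control and 54 UMIs in 9 cKO members) was among them, yet among members without Malat1 its log2 ratio was -2.85. Of 7 measured nuclear RNAs, 4 were higher in cKO (3 of 6 with enough UMIs in each library) and 0 lower, beside the same 10.4% and 6.05%, Malat1 by a ratio of 2.13 (1.98 to 2.29). With no upper UMI limit this turned, to log2 ratios of -0.57 for Malat1 and -0.16 for Neat1 and a list median of -0.092, and in other shallow mesenchymal and deep rule barcodes Malat1 was lower in cKO, by log2 ratios of -0.48 and -0.73.

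Receptors for uterine hormones were present at modest levels. Pgr, the progesterone receptor, had 447 CPM in 47 control members and 945 CPM in 58 cKO members, a ratio of 2.11 (1.66 to 2.71). Esr1 had 97.1 and 131 CPM, a ratio of 1.35 (0.738 to 2.47). Of 10 measured steroid receptor and response genes, 3 were past 2-fold higher, among them Pgr and the retinoic acid hydroxylase gene Cyp26b1, and the growth factor gene Igf1 was 2.10-fold (1.55 to 2.87) lower, beside 10.4% and 6.00% of all genes. With enough UMIs in each library, Pgr and Igf1 were the 2 of 7 past 2-fold, and with no upper UMI limit Igf1 turned to a log2 ratio of 1.10.
Of 8 vasoactive genes measured outside the rule, Nppc (371 and 759 CPM), the precursor of C-type natriuretic peptide, the bradykinin receptor gene Bdkrb2 (21.1 and 116 CPM) and the prostaglandin synthase gene Ptgs2 (29.5 and 201 CPM) were past 2-fold higher and 0 lower, beside 10.4% of all genes higher. With enough UMIs in each library, Nppc alone of 6 was higher, beside 6.05%, and counts this small say nothing about the list. Under 3000 UMIs, Bdkrb2 turned to a log2 ratio of -2.68, and among members without Malat1, Ptgs2 turned to -0.17. The urotensin receptor gene Uts2r had 0 UMIs in members of both libraries. Ror2, a receptor for noncanonical Wnt ligands, was the 1 of 3 measured planar cell polarity genes past 2-fold, with 131 and 291 CPM, beside 16.4% of all genes, and a count over 3 genes says nothing about the list.

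Markers of other cells were low in members. Over the lists, pericyte markers summed to 101 and 156 CPM with Rgs5 at 0 in both libraries, and blood endothelial markers to 38.0 and 85.4 CPM with Pecam1 and Cdh5 at 0. Lymphatic markers summed to 865 and 1352 CPM, but Pdpn alone supplied 204 of 205 UMIs in control and all 269 in cKO, and Prox1 was at 0; Pdpn is also known from fibroblasts. Leukocyte markers summed to 29.5 and 95.5 CPM, below the cell-free 1208 and 1565 CPM. Epithelial markers summed to 181 and 10.1 CPM, again below the cell-free 7588 and 760 CPM, and 13 of 14 were seen in control and 2 of 14 in cKO.
The 14 smooth muscle genes outside the rule summed to 1038 and 1111 CPM, against 19000 and 13846 CPM in shallow smooth muscle barcodes. Stromal fibroblast markers were the highest list, at 28702 and 15394 CPM, against 2854 and 7227 CPM in cell-free barcodes. Of its 17 measured genes, 6 were past 2-fold lower in cKO and 1, Fbln1, higher, beside 6.00% and 10.4% of all genes. With enough UMIs in each library, 5 of 15 were lower and Fbln1 higher, beside 3.32% and 6.05% of all such genes. These 5 (Col1a1, Col1a2, Col3a1, Col6a2 and Sparc) are the genes already described above.

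Members differed among themselves most in Malat1 and Ccl2. At 800 UMIs each (92 control and 75 cKO members, 1 cKO member being too shallow), the median ratio of variance to mean over 2046 genes was 1.06 and 1.08, near the value of pure counting. It was 41.0 and 24.1 for Malat1, 7.98 and 12.2 for Ccl2, 4.37 and 4.19 for Col1a2 and 3.89 and 3.58 for Thbs2. Chemokine and collagen UMIs were thus spread unevenly over the members.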

How the data were processed

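The deposited values were raw UMI counts per gene and barcode in unfiltered matrices, whose format line names Cell Ranger 4, per the file headers. The submitters' processing notes name Cell Ranger 6.1.1 and mm10. Everything else was computed from those counts with Python 3.11.15, NumPy 2.4.6, SciPy 1.17.1, pandas 2.3.3 and scanpy 1.11.5 (whose Scrublet gave doublet scores). Scaling by TMM used edgeR 4.0.16, as an alternative only. Of 32285 gene identifiers, 32158 (99.6%) were found in GENCODE M21 on GRCm38, used for positions.

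The members and all gene lists were chosen with earlier results of these data known. Counts were summed per library and group. CPM carries exact Poisson, shares exact binomial (Clopper-Pearson) and ratios exact conditional binomial 95% intervals, and a count of 0 was taken to allow 3 counts. With 1 library per group no p-value is given: past 2-fold means a ratio of at least 2 or at most 0.5 with an interval that excludes 1, among genes with at least 15 UMIs on the higher side. List medians carry a pseudocount of 0.5 UMI. Cell-free RNA was read from barcodes of at most 100 UMIs. Ratio and interval code was tested on simulated data.

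Genes were named by this rule: the 10 rule genes; the 12 largest rises and 12 largest falls between libraries; the 20 highest and 10 lowest against other shallow mesenchymal barcodes; up to 4 genes with most UMIs and 4 past 2-fold per list; the 10 most dispersed; and the 10 with most UMIs. Mitochondrial, ribosomal protein, haemoglobin, immunoglobulin and unnamed genes were left out of the ranked choices. Some genes that this rule names are not reported here. Rankings used the interval limit nearer to 1. Prickle1, Arl2bp, Bmp2, Bmp4, Calcrl, Col5a1, Col6a2, Esr1, Fbln1, Fos, Hoxa10, Id1, Lima1, Postn, Rspo3, Sfrp1, Tgfb2, Timp2, Tnc, Tsix, Wnt9a and the marker genes given at 0 fall outside it and were named after their values were seen. Shallow smooth muscle barcodes were planned at 5% smooth muscle UMIs, which left 5 and 0 barcodes, and were redefined at 1% after the data were seen. The deep rule barcodes, the Malat1 ranges and the counts over genes with at least 15 member UMIs in each library were also defined then. Alternatives changed the gene, UMI, mitochondrial, rule gene and smooth muscle limits, doublets, averaging, scaling, cell-free RNA, the UMI minimum per gene and the thinning depth.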

Additional observations from a re-analysis of the deposited data

How the results depend on the processing

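No paired analysis was possible because each group is 1 library with no shared replicate. The log2 ratio of member shares, -0.71, turned to 0.92 without the 5000 UMI limit. The log2 ratio of summed rule genes, 0.26, was 0.85 under 3000 UMIs, 0.095 with no UMI limit, 0.049 with at least 4 rule genes, 0.42 with barcodes weighted equally and 0.11 with TMM, and 0.57 in members without Malat1, an alternative chosen after seeing the data. The 519 genes past 2-fold between libraries became 274 under 3000 UMIs, 1376 with no UMI limit, 279 with at least 30 UMIs per gene and 341 without Malat1-bearing members; the 334 against other shallow barcodes became 207 with at least 30 UMIs and 167 under 3000 UMIs. With no UMI limit, the split was 653 higher and 723 lower, and these log2 ratios reversed: Col1a1 0.84, Col1a2 0.60, Col3a1 0.26, Col5a2 0.66, Col15a1 0.22, Sparc 0.20, Fkbp11 0.72, Gapdh 0.36 and Igf1 1.10 became higher in cKO. Tspan9 -1.68, Mdm2 -1.06, Cx3cr1 -0.92, Cdkn1a -0.83, Gadd45b -0.78, Id2 -0.66, Malat1 -0.57, Snhg12 -0.49, B2m -0.32, Pcp4 -0.24, Camk2d -0.24, H2-K1 -0.17, Neat1 -0.16, Ccl7 -0.018 and the nuclear RNA median -0.092 became lower. Under 3000 UMIs Hspa1a -3.21, Bdkrb2 -2.68 and Dio2 -0.47 reversed; with at least 4 rule genes Neat1 -0.38 and the nuclear RNA median -0.055; and without Malat1-bearing members Hspa1a -2.85, Atf3 -2.01, Ptgs2 -0.17 and Dio2 -0.046. The cause was not tested. Over all alternatives 866 single-gene values stayed within their counting interval, 163 moved outside it and 31 reversed, as did 235, 52 and 2 list medians. Depth limits genes under 15 UMIs, which were not compared.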

Other observations

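The 30 interferon-response genes summed to 1722 CPM in control and 1794 CPM in cKO members. Of 6 measured interferon-response genes, B2m (321 and 658 CPM) and H2-K1 (270 and 558 CPM), parts of the class I antigen-presenting complex, were past 2-fold higher in cKO, beside 10.4% of all genes, with ratios of 2.05 (1.54 to 2.76) and 2.07 (1.51 to 2.86). Ifi27l2a, an interferon-induced gene, was 4.44-fold (1.95 to 11.8) lower. In deep rule barcodes the log2 ratios of B2m and H2-K1 were -0.015 and -0.11, and with no upper UMI limit they turned to -0.32 and -0.17 in members. Their list as a whole had a median log2 ratio of -0.15.

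Of 7 measured Hox and Mullerian duct factors, which mark position along the reproductive tract, 0 were past 2-fold between the libraries, beside 16.4% of all genes, which for 7 genes says nothing about the list. Hoxa10, known for its part in uterine identity and receptivity, had 13 UMIs in control and 22 UMIs in cKO members, and its ratio of 2.02 (0.971 to 4.36) did not exclude 1. The 20 cell cycle genes summed to 827 CPM in control and 1292 CPM in cKO members, and 10 and 12 of them had a UMI. Deep mesenchymal barcodes had 1071 and 929 CPM. Of 3 with enough UMIs 1 was past 2-fold higher, the cell cycle inhibitor gene Cdkn1a (333 and 694 CPM, ratio 2.08, 1.57 to 2.78). Over all genes 10.4% were higher, and a count over 3 genes says nothing about the list. With no upper UMI limit Cdkn1a turned to a log2 ratio of -0.83, and with TMM scaling B2m, H2-K1 and Cdkn1a fall short of 2-fold.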
